A study of Mus musculus with 39 samples.

Results

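The levels of 10 genes that mark neutrophils and monocytes were followed through sorted B-lineage fractions of mouse bone marrow and through leukemic cells labelled as pre-B. The genes were taken by symbol: Camp, Ltf, Ngp, Lcn2, S100a8 and S100a9, made late in neutrophil maturation, Mpo and Elane, stored in the primary granules of earlier cells, and Csf1r and Lyz2, which monocytes express. All 10 were on the array, with 12 of the 20380 probe sets that carried 1 gene symbol. They are 10 of the 12393 genes so represented. Csf1r had 3 probe sets, and the one with the highest mean over all arrays was used, as for every gene.

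RNA was measured on 39 Affymetrix arrays, 1 per sample. Adult mouse bone marrow gave 6 arrays of pro-B cells (B220+ CD43+ IgM- IgD-), 8 of pre-B cells (B220+ CD43- IgM- IgD-), 6 of immature B cells (B220+ CD43- IgM+ IgD-) and 3 of mature B cells (B220+ CD43- IgM+ IgD+). The other 16 arrays held cells labelled leukemic pre-B, with the surface markers of pre-B cells stated for all but array 116. The series title describes them as MLL-AF4 lymphoblasts, a leukemia in which the MLL gene is fused to AF4. For 5 of them the labels state that pIpC, an RNA analogue that induces interferon, preceded the leukemia (arrays A46, 270, A992, A1322 and A1507). The description of leukemic array 116 names an Mll-AF4stop knock-in mouse and states neither leukemia nor sort markers. It was kept in the leukemic group from its cell type label. The labels used here give no strain and no age beyond adult. They name no separate animal for each normal array, so the p-values reflect a spread between samples that may be technical.

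Neutrophils fill their granules in a fixed order. Mpo, the myeloperoxidase that makes hypochlorous acid, and Elane, neutrophil elastase, are made in promyelocytes for the primary granules. Camp (the precursor of the antimicrobial peptide cathelicidin), Ltf (lactoferrin, an iron-binding protein), Ngp (neutrophilic granule protein) and Lcn2 (lipocalin 2, which binds bacterial siderophores) follow in the secondary granules, while S100a8 and S100a9 form calprotectin, the main protein complex of the neutrophil cytosol. Csf1r is the receptor for the macrophage growth factor CSF1, and Lyz2 is lysozyme M, made by monocytes, macrophages and neutrophils. None of the 10 is a B-lineage gene, and bone marrow is the organ in which both lineages form. In bulk samples such as these, more cells of a type and more RNA per cell cannot be told apart.

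The bases just upstream of these genes are shown because the late granule, primary granule and monocyte genes were compared as kinds below. RefSeq promoters of build GRCm38.p6 were at hand for 9 of the 10 genes, and the 250 bases before each start were searched on both strands for TTNNGNAA, a C/EBP-type motif, and GAGGAA, a PU.1-type motif, after transcription factors known for their role in myeloid cells. Capitals mark the matches, on either strand, and each sequence reads 5′ to 3′ on the gene's own strand.
Ngp, late granule, chr9:110419558-110419807, + strand: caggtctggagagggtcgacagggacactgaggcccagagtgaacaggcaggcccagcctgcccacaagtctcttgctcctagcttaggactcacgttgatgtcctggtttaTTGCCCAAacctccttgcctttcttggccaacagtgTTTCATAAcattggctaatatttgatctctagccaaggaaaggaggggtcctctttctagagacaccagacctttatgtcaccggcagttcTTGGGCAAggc
Ltf, late granule, chr9:111019042-111019291, + strand: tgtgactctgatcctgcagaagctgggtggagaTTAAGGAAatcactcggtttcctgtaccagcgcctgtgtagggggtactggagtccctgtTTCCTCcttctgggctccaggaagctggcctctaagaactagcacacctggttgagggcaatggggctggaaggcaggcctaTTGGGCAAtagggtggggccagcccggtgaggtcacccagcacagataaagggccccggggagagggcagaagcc
Mpo, primary granule, chr11:87793534-87793783, + strand: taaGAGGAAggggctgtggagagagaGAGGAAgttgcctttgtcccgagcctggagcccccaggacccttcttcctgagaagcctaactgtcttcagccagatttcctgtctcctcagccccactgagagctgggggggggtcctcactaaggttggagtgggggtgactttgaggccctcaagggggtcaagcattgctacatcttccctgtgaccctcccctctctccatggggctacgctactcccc
Elane, primary granule, chr10:79886062-79886311, + strand: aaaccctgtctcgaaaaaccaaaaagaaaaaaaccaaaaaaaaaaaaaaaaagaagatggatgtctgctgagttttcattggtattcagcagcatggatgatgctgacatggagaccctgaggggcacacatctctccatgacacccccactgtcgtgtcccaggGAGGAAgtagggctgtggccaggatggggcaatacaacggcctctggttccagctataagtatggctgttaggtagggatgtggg
Lyz2, monocyte, chr10:117282273-117282522, - strand: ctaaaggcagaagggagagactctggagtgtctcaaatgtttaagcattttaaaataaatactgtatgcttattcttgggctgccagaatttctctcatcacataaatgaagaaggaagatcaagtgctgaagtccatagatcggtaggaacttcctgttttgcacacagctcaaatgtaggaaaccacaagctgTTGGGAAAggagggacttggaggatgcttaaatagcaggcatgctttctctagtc
The C/EBP-type letters lay in 5 of the 6 late granule and cytosol promoters (Ltf, Ngp, Lcn2, S100a8 and S100a9, with no match in Camp), in 0 of 2 primary granule promoters and in that of Lyz2. The PU.1-type letters lay in both primary granule promoters and in 3 of the 6 late ones. Over all 32851 promoters of the same length, 36.8% held the first motif and 23.3% the second, so either is common. The letters TGTGGT, a RUNX-type motif searched on both strands, lay in 2 of 9 promoters (S100a9 and Lyz2) against 14% of all. Camp, Ltf and Ngp all lie on chromosome 9, and S100a8 and S100a9 on chromosome 3. A TATA box, TATAAA on the gene's own strand, lay in 1 of 9 (S100a8) against 7.59% of all.

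The B-lineage labels were checked against defining genes. Cd79a, a chain of the B-cell receptor complex, was between 9.72 and 12.80 on the normal arrays (log2 intensity, here and for all levels below), and Spn, which encodes CD43, was higher on every pro-B array (6.0 to 6.96) than on any pre-B array (4.94 to 5.74). On the leukemic arrays Spn ran from 4.61 to 7.45 (median 5.63). It lay above every pre-B array on arrays 15 (5.94), 117 (6.21), 122 (7.45), 153 (6.21), 228 (5.76) and 270 (6.3). On 15 leukemic arrays Cd79a was between 10.66 and 12.04. Leukemic array 122 stood apart, with Cd79a at 7.0 and the B-lineage factor Ebf1 at 7.27, against 10.95 to 11.56 for Ebf1 on the other leukemic arrays. Comparisons with the leukemic arrays are therefore also given without it. Accession numbers form 2 runs, run 1 with 22 arrays and run 2 with 17, and the mature B arrays belong to run 2 only. No label calls the runs a batch, but a control of RNA integrity, the 3' minus 5' probe set difference of beta-actin, was 1.18 to 1.46 in run 1 and 0.60 to 1.12 in run 2.

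Camp ran from 11.44 to 12.79 with a median of 12.18 on the 6 pro-B arrays, from 9.15 to 11.98 (median 10.78) on the 8 pre-B arrays and from 10.45 to 12.57 (median 11.81) on the 6 immature B arrays. On the 3 mature B arrays it was 12.65, 11.25 and 12.87. On the 16 leukemic arrays it ran from 5.42 to 9.64 with a median of 7.28. The normal groups overlapped each other, and only leukemic arrays A1322 and A46 reached the range of the pre-B arrays.

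S100a8 was nearly constant on the pro-B arrays, between 12.77 and 12.83. It ran from 10.91 to 12.47 (median 12.29) on the pre-B arrays and from 12.12 to 12.86 (median 12.77) on the immature B arrays, and was 12.73, 12.07 and 12.86 on the mature B arrays. On the leukemic arrays S100a8 spread over 5.14 to 11.71 (median 9.35), 94.6 times from lowest to highest on the linear scale. The highest value of any probe set on an array was 13.88 to 14.18, so the normal values of S100a8 and of S100a9 (up to 13.45) lie close to it.

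Mpo was between 9.90 and 11.61 (median 10.93) on the pro-B arrays and between 8.74 and 10.93 (median 9.63) on the pre-B arrays. Immature B arrays held 9.76 to 11.12 (median 10.67), and the mature B arrays 11.35, 10.27 and 11.71. The leukemic arrays spread much further, from 3.67 to 12.03 (median 8.38), so that the lowest lay far below and the highest above every normal array. Elane ran from 5.79 to 9.92 on the normal arrays and from 3.66 to 8.34 on the leukemic ones.

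Lyz2 was between 10.95 and 11.90 on the pro-B arrays (median 11.38), between 8.03 and 11.18 (median 9.98) on the pre-B arrays, and between 9.77 and 12.90 (median 11.90) on the immature B arrays. The mature B arrays held 11.44, 10.63 and 13.21, and the leukemic arrays 4.89 to 12.56 (median 8.31). Csf1r ran from 7.24 to 8.65 (median 8.08) on the pro-B arrays and from 4.09 to 6.72 (median 5.43) on the pre-B arrays, with no overlap. Its leukemic values covered 3.68 to 12.17 (median 7.91) on the probe set used, 359.6 times from lowest to highest on the linear scale. That was the widest span of the 10 genes in any group, with Mpo next at 330.0 times. The other Csf1r probe sets spanned only 59.7 and 12.5 times on the leukemic arrays.

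By median, the leukemic arrays came last of the 5 groups for 9 of the 10 genes, and the pre-B arrays next to last. Csf1r was the exception, with the order immature B, pro-B, leukemic, mature B and pre-B. Neighbours in these orders overlapped for every gene but S100a9, whose pro-B arrays (13.14 to 13.35) all lay above its pre-B arrays (11.53 to 13.12).

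**Figure D1:**
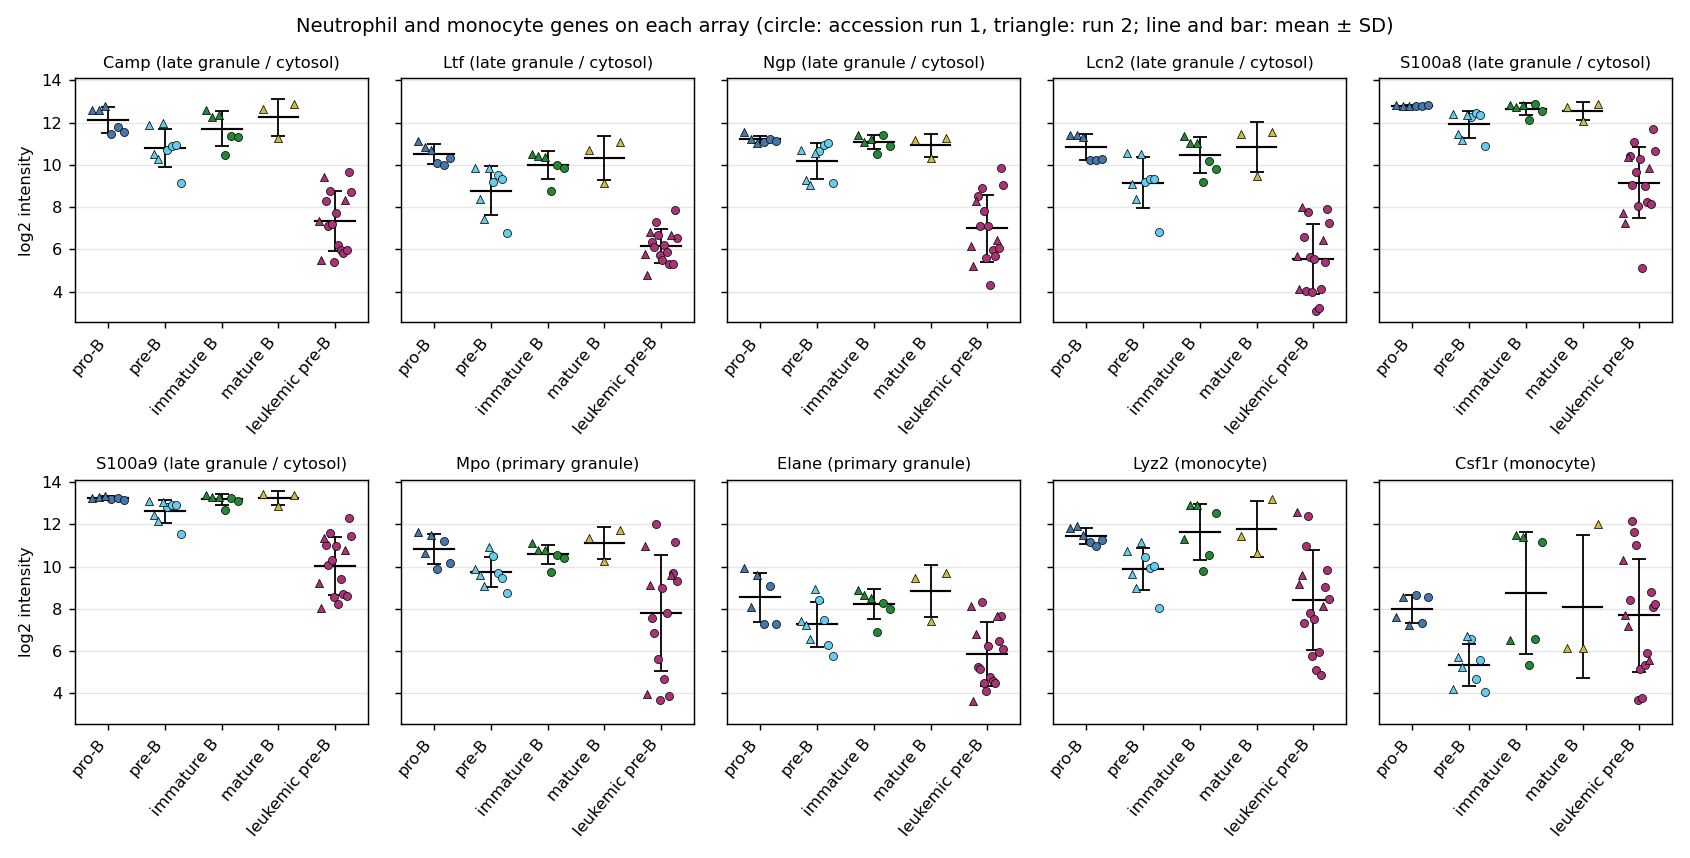
Log2 intensity of the 10 genes on each of the 39 arrays, by group, with circles for accession run 1, triangles for run 2, and the group mean ± SD in black. The late granule and cytosol genes sit low on most leukemic arrays, while Csf1r runs from 3.68 to 12.17 there and falls into a high and a low set on the immature and mature B arrays.

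The step from pro-B to pre-B cells compares the CD43+ with the CD43- fraction. Of the 10 genes, 9 were lower on the pre-B arrays (limma, Benjamini-Hochberg adjusted p under 0.05 over all genes, here and below), where 15.7% of all genes were called lower. The median difference was -1.31 over the 10 genes and 0.11 over all genes. Among the late genes, Ltf fell by 1.73 (SE 0.43, adjusted p = 0.00389), from 10.51 ± 0.45 (SD, n = 6) to 8.78 ± 1.15 (n = 8). S100a8 fell by 0.88 (SE 0.21, adjusted p = 0.0031). Camp, Lcn2, Ngp and S100a9 fell by 1.33, 1.66, 1.03 and 0.63.

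Mpo fell by 1.11 (SE 0.33, adjusted p = 0.0124). Elane was at 7.26 ± 1.06 against 8.55 ± 1.16, a difference of -1.29 that did not pass (adjusted p = 0.0524). Among the monocyte genes, Csf1r fell by 2.63 (SE 0.96, adjusted p = 0.0382), which is 6.2-fold, and Lyz2 by 1.55 (adjusted p = 0.0216). Ltf, S100a8, S100a9 and Csf1r did not overlap between the groups, as did 10.8% of all genes. The call for Csf1r was lost when any 1 of 8 arrays was left out (pro-B 1, 2, 4 or 6, or pre-B 1, 6, 7 or 8), with differences of -2.71 to -2.45. It was also lost on the other Csf1r probe sets, where the difference was -1.42 (adjusted p = 0.181) and -0.14 (0.855), and as the mean of all 3 (-1.40, adjusted p = 0.151). With the accession run as a covariate all 10 genes were called, and within run 2 alone 6 were. The covariate also raised the count over all genes above the 4162 of the main analysis, so a gain in calls was not particular to the 10. With all 39 arrays in 1 fit, 1 of the 10 genes was called, and within run 1 alone 0 were, at differences of -2.94 to -0.64.

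Genes of several other cell types moved the same way in this step, but not those of every list. Of 20 other late neutrophil genes 14 were lower and 0 higher, among them Cybb, the phagocyte oxidase subunit (-2.64), Slpi (-2.20) and Cd177 (-2.12). Of 24 other monocyte genes 13 were lower and 1 higher, led by the lysosomal protein Cd68 (-3.33), the pore-forming protein Mpeg1 (-2.95) and the cytokine receptor chain Csf2rb (-2.90). Of 9 other primary granule genes 6 were lower and 1 higher, and Cst7, Ctsg (cathepsin G) and Ms4a3 fell by 3.21, 1.59 and 1.56. Cells outside the myeloid lineage showed it too: 8 of 9 plasmacytoid dendritic genes (Lair1 -4.19, Pacsin1 -3.46, Bst2 -3.37) and 13 of 14 NK and T cell genes (Ccl5 -4.09, Gzma -4.06, Ncr1 -4.06) were lower on the pre-B arrays. Other lists were mixed or mostly uncalled. Of 16 macrophage genes 2 were lower, 1 was higher (Mertk, 1.34) and 13 were uncalled, and of 9 erythroid genes 7 were uncalled. Of 13 eosinophil, basophil and mast cell genes 6 were lower and 2 higher, among the latter Prg3 (2.23). Of 14 myeloid transcription factor genes 6 were lower and 3 higher. The mean log2 level of the NK and T list was 7.84 to 9.59 on the pro-B arrays and 5.38 to 5.96 on the pre-B arrays, and its part in the differences above was not tested.

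From pre-B to immature B cells, 5 of the 10 genes rose, where 10.9% of all genes were called higher. The median difference was 0.94 over the 10 genes and -0.06 over all genes. These 2 steps share the pre-B arrays, so they are not independent. Csf1r rose by 3.40 (SE 0.96, adjusted p = 0.0125), Lyz2 by 1.77 (SE 0.50, adjusted p = 0.0123), Ngp by 0.91, S100a8 by 0.73 and S100a9 by 0.55. Camp, Ltf, Lcn2 and Mpo differed by 0.93, 1.21, 1.28 and 0.84 and did not pass (adjusted p = 0.105, 0.0512, 0.0629 and 0.0727). With the accession run as a covariate 9 of the 10 were called, with all 39 arrays in 1 fit 0, and within run 1 alone 0. No count over all genes with that covariate is set beside the 9 here. Leaving out 1 array gave 3 to 9 calls, with 9 without immature B array 4 or pre-B array 4 and 3 without immature B array 1, 3 or 5 or pre-B array 2 or 3. Within the runs Csf1r differed by 2.46 and 4.33 (adjusted p = 0.224 and 0.0533). On its other probe sets it differed by 2.61 (adjusted p = 0.0274) and by 1.31, which did not pass (adjusted p = 0.0863). Other lists rose too, with 10 of 20 other late neutrophil, 12 of 24 other monocyte and 8 of 16 macrophage genes higher and 0 of each lower, while 7 of 14 NK and T cell genes were lower.

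The rise of Csf1r was uneven over the arrays of the group. Immature B arrays 2, 3 and 6 were at 11.48, 11.41 and 11.17, and arrays 1, 4 and 5 at 6.53, 5.34 and 6.59. Among the mature B arrays, array 3 was at 12.01 and arrays 1 and 2 at 6.13 and 6.17. Immature B arrays 2, 3 and 6 and mature B array 3 lay above every pro-B and pre-B array, and the other 5 lay within the range of the pre-B arrays for Csf1r (4.09 to 6.72). Both runs contributed, since immature B array 6 is of run 1 and arrays 2 and 3 of run 2. The other Csf1r probe sets gave the same split, 10.10 to 10.54 against 5.52 to 5.96 and 7.34 to 8.23 against 4.89 to 4.98 on the immature B arrays.

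Lyz2 was also highest on those arrays, at 12.90, 12.89 and 12.51 on immature B arrays 2, 3 and 6 against 11.29, 9.77 and 10.53 on arrays 1, 4 and 5, and at 13.21 on mature B array 3. The granule genes did not follow that split. Camp was at 12.25, 12.35 and 11.31 on immature B arrays 2, 3 and 6 and at 12.57, 10.45 and 11.36 on the other 3. S100a8 was at 12.73, 12.81 and 12.55 against 12.84, 12.12 and 12.86. The mean log2 level of the 16 macrophage genes was 7.16, 7.13 and 7.15 on immature B arrays 2, 3 and 6 and 4.48, 4.89 and 4.52 on the other 3. That of the 24 other monocyte genes was 9.49, 9.58 and 9.24 against 7.53, 6.96 and 7.49, and that of the 20 other late neutrophil genes 7.66, 7.63 and 7.46 against 7.40, 6.44 and 7.07. The part of macrophages or monocytes in the level of Csf1r was not tested. Cd79a did not separate them, at 12.02 to 12.74 and 12.19 to 12.80.

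**Figure D2:**
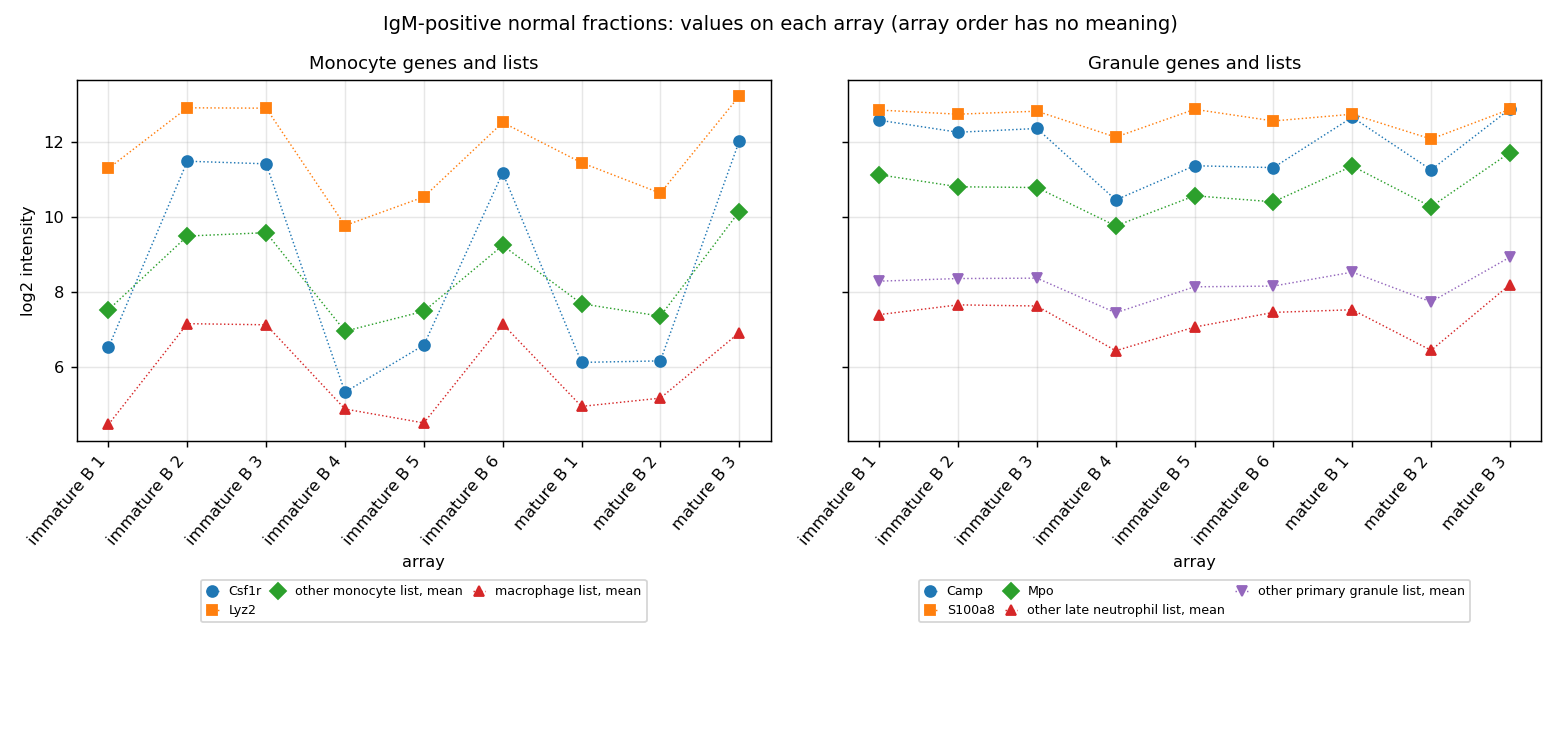
Log2 intensity on each of the 6 immature B and 3 mature B arrays, for single genes and for the mean of gene lists, with lines that only join the points of a gene or list. In the left panel Csf1r is at 11.17 to 12.01 on immature B arrays 2, 3 and 6 and mature B array 3 and at 5.34 to 6.59 on the others, and in the right panel Camp, S100a8 and Mpo do not divide the arrays in that way.

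None of the 10 genes was called between mature and immature B cells by limma, where 5.25% of all genes were, and 0 had an unadjusted p under 0.05. The largest difference was that of Csf1r, -0.65 with a 95% interval of -3.25 to 1.94, and the narrowest interval that of S100a9, -0.44 to 0.56 around 0.06. With 3 mature B arrays, all of run 2, these intervals allow changes of either sign, and several signs turned within run 2.

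The central comparison set leukemic cells against normal pre-B cells, whose surface markers the labels also state for every leukemic array but 116. Its pre-B arrays are those of the 2 steps above. All 6 late granule and cytosol genes fell, and the other 4 did not pass, while 7.53% of all genes were called lower. The median difference was -2.59 over the 10 genes and -0.01 over all genes. Lcn2 fell by 3.61 (SE 0.62, adjusted p = 0.000146), from 9.16 ± 1.2 (SD, n = 8) to 5.55 ± 1.67 (n = 16), a 12.2-fold difference. Camp fell by 3.44 (SE 0.51, adjusted p = 2.48e-05), from 10.79 ± 0.90 to 7.34 ± 1.41. Ngp, S100a8, Ltf and S100a9 fell by 3.16, 2.77, 2.61 and 2.58.

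Between 12 and 15 of the 16 leukemic arrays lay below every pre-B array for each of these 6 genes, and 0 lay above. All 6 calls were kept with the run as a covariate, and all but that of S100a8 (adjusted p = 0.0562) within run 1 alone. All 6 held within run 2 and without array 122, where Camp differed by -3.54. No left-out array ended any of the 6.

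The primary granule and monocyte genes varied more. Mpo was at 7.81 ± 2.75 on the leukemic arrays against 9.73 ± 0.71 (difference -1.92, adjusted p = 0.183), with 8 arrays below and 3 above every pre-B array. Elane differed by -1.39 (adjusted p = 0.1), which passed without array 122 (-1.55, adjusted p = 0.0454). Lyz2 differed by -1.46 (adjusted p = 0.265), with 7 arrays below and 2 above. Csf1r went the other way, at 7.69 ± 2.67 against 5.36 ± 1.0, a difference of 2.33 (95% interval 0.45 to 4.21, adjusted p = 0.0863). On the probe set used Csf1r lay above every pre-B array on 10 of the 16 leukemic arrays and below on 2, arrays 154 and 226. It passed without array 154 (2.60, limma adjusted p = 0.0431) or without array 226 (2.59, adjusted p = 0.0402).

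**Figure D3:**
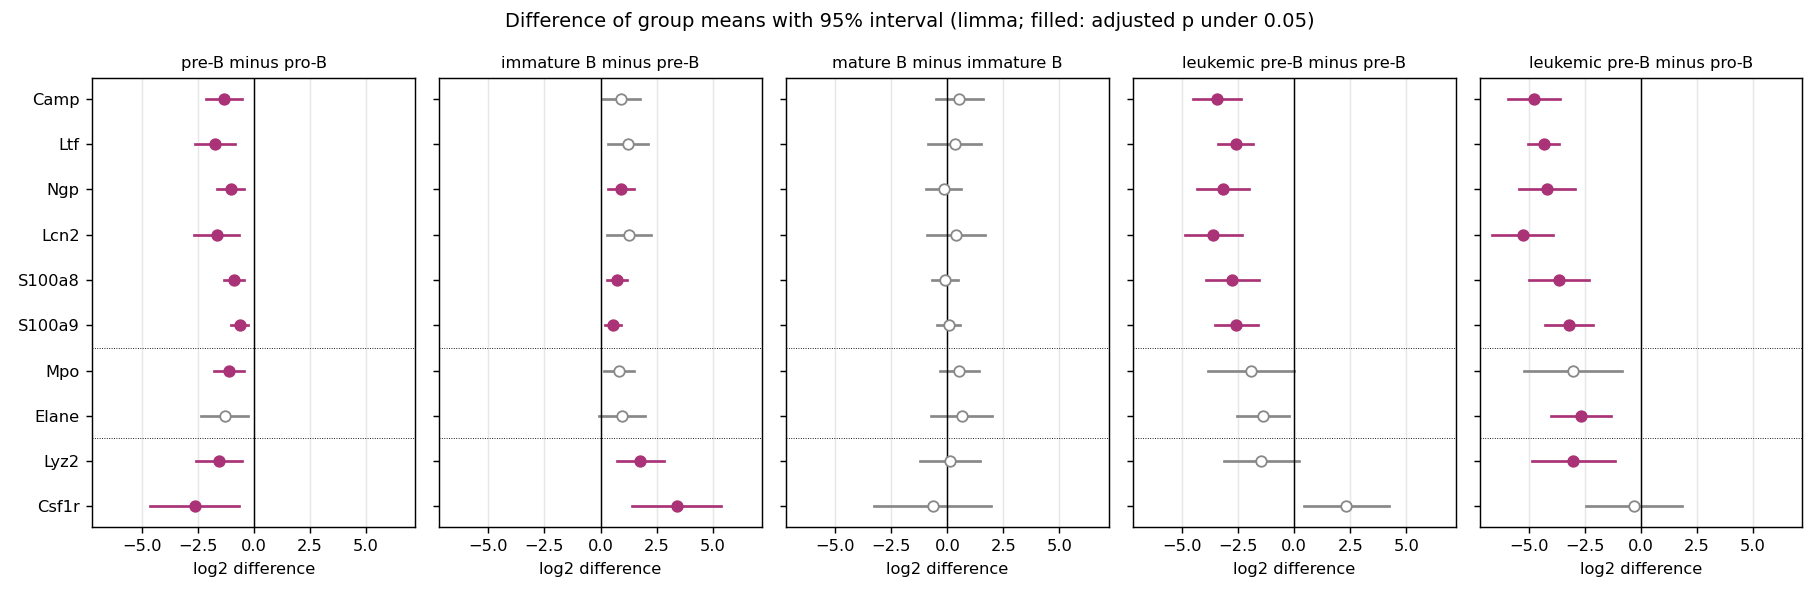
Difference of group means in log2 intensity with its 95% interval from limma, for 5 comparisons of the 10 genes; filled points passed an adjusted p under 0.05. In leukemic against normal pre-B cells the 6 late granule and cytosol genes lie between -3.61 and -2.58, and Csf1r at 2.33.

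Whether a granule and a monocyte gene changed by unequal amounts was tested within arrays. Camp minus Csf1r was 5.43 ± 1.08 on the pre-B arrays (n = 8) and -0.34 ± 2.57 on the leukemic arrays (n = 16), a difference of -5.77 (two-sided exact permutation test, adjusted p = 0.000147 over 12 tests). Its values ran from 4.09 to 7.68 on the pre-B arrays and from -5.05 to 2.77 on the leukemic arrays, with no overlap. Against pro-B cells, at 4.13 ± 1.09, the difference was -4.48 (exact permutation, adjusted p = 0.00418). Without array 122 these were -5.61 and -4.31. S100a8 minus Lyz2 differed by -1.30 between leukemic and pre-B arrays and did not pass (exact permutation, adjusted p = 0.236). Against pro-B arrays it differed by -0.63 and did not pass either (exact permutation, adjusted p = 0.671). Camp minus Csf1r did not pass for pre-B minus pro-B (1.3) or immature B minus pre-B (-2.47), each at exact permutation adjusted p = 0.109.

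Leukemic arrays with high levels did not share a single pattern. Array 117 had the highest Csf1r, 12.17, with Camp at 7.12 and 8 of the 10 genes below every pre-B array. Array 153 was alike, with Csf1r at 11.01 and the other 9 genes below every pre-B array, Lyz2 (7.81) included. Array 15 combined high Lyz2 (12.56), Csf1r (10.31) and Mpo (10.96) with late genes below every pre-B array, such as Camp at 7.33 and Ngp at 6.14.

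Array 122 had the highest Mpo, 12.03, with Csf1r at 11.63 and Lyz2 at 12.41, while 4 of its late genes lay within the pre-B range and Camp (8.78) and Ngp (8.92) below it. Array A1322 was the only one with all 6 late genes within the range of the pre-B arrays, Camp at 9.64 and S100a8 at 11.71 included, and its Mpo (11.14) and Csf1r (8.10) lay above that range. At the other end, all 10 genes lay below every pre-B array on arrays 154 and 226, where Csf1r was at 3.68 and 3.80. The lowest 20% of all values in the data lie at or below 3.78. This did not hold on the other Csf1r probe sets. They gave 5.34 and 5.54 (pre-B range 5.01 to 6.04) and 5.71 and 5.09 (pre-B range 4.78 to 5.42) on arrays 154 and 226.

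Over the 16 leukemic arrays and 10 genes, 107 of 160 values lay below the range of the pre-B arrays, 38 within it and 15 above it. Of those above, 10 were of Csf1r, 3 of Mpo and 2 of Lyz2, and 0 of a late gene. On 12 arrays all 6 late genes were below the range. Of the 10 arrays with Csf1r above it, 8 had Camp below it and 6 had all 6 late genes below it.

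**Figure D4:**
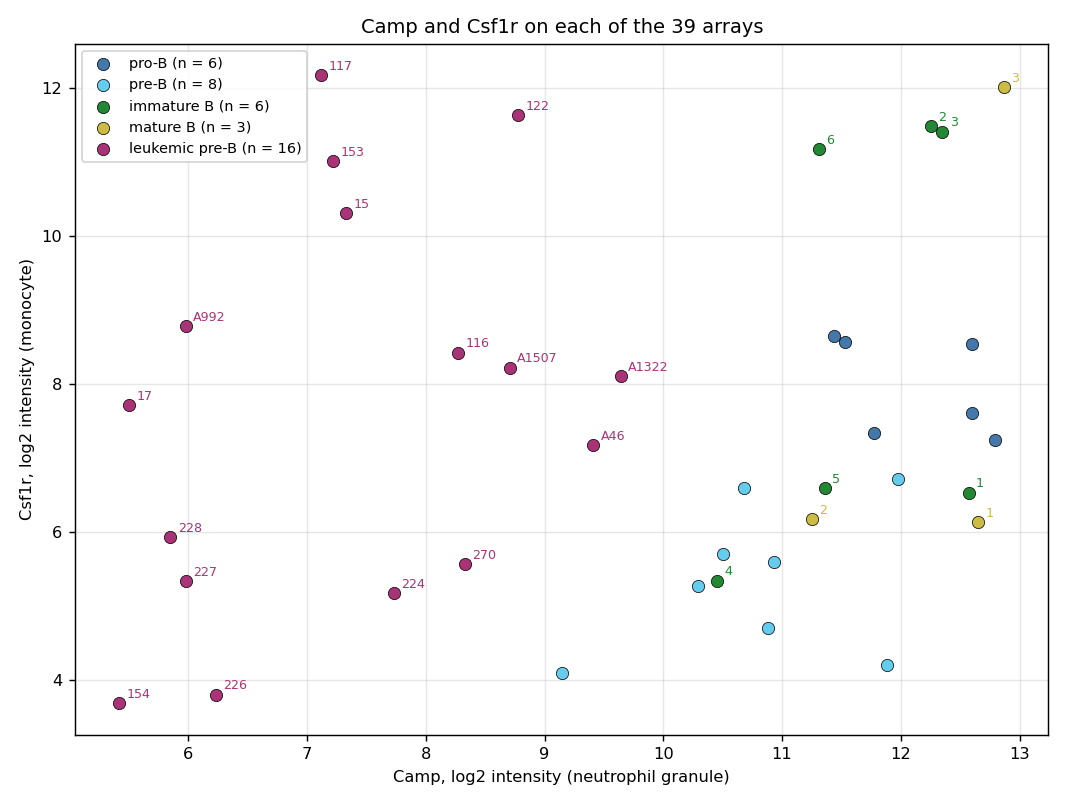
Log2 intensity of Camp and of Csf1r on each of the 39 arrays, coloured by group, with array names for the leukemic, immature B and mature B arrays. Normal arrays lie at high Camp, with Csf1r between 4.09 and 12.01, and the leukemic arrays lie at lower Camp, with Csf1r between 3.68 and 12.17.

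Most other phagocyte genes were uncalled between leukemic and pre-B cells. Of all 12393 genes, 933 (7.53%) were called lower and 1054 higher in this comparison. Of 20 other late neutrophil genes 4 were lower and 0 higher, among them the chitinase-like Chil3 (-2.70), the gelatinase Mmp9 (-1.91) and the peptidoglycan-binding Pglyrp1 (-1.72), with a median over the list of -0.43. Of 9 other primary granule genes 1 was lower, Gstm1 (-2.30). Of 24 other monocyte genes 1 was higher, the lipopolysaccharide receptor Tlr4 (1.70), and the median was -0.01. Of 16 macrophage genes 1 was higher, Apoe (0.50). Of 13 eosinophil, basophil and mast cell genes 4 were lower, led by the eosinophil granule genes Prg3 (-3.95), Prg2 (-2.66) and Epx (-1.69). Of 14 myeloid transcription factor genes 3 were lower, Klf4 (-2.23), Zeb2 (-1.08) and Myb (-0.27), and of 12 oxidase and Fc receptor genes Ncf4 rose by 0.70 and Rac2 fell by 0.54. Of 9 plasmacytoid dendritic genes 4 were lower, among them Cd209d (-2.97), Klra17 (-2.55) and Spib (-1.36). Of 14 NK and T cell genes 2 were lower, Gzma (-2.37) and Ncr1 (-0.77). The part of these other cell types in the leukemic differences was not tested.

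Against pro-B cells, 8 of the 10 genes were lower on the leukemic arrays, where 7.63% of all genes were. The 6 late genes did not overlap between the groups, as against 1.55% of all genes, and the median difference was -3.42 over the 10 genes and 0.13 over all genes. This comparison shares the leukemic arrays with the one above. Lcn2 fell by 5.28 (SE 0.66, adjusted p = 4.54e-06) and Ltf by 4.34 (SE 0.33, adjusted p = 2.08e-09). Elane fell by 2.67 and Lyz2 fell by 3.01. Mpo differed by -3.03 (adjusted p = 0.0531), which passed without array 122 (-3.31, adjusted p = 0.0234). Lyz2 lost its call without any 1 of pro-B arrays 1, 2, 3 and 6, and within either run, where Elane lost it too. Of the late genes, S100a8 lost its call within run 1 (-3.52, limma adjusted p = 0.0608). Csf1r differed by -0.30 (95% interval -2.43 to 1.83, adjusted p = 0.859), and its other probe sets gave 0.41 and 0.89, so its sign depended on the probe set. Of the 9 plasmacytoid dendritic and 14 NK and T cell genes, 9 and 11 were lower here, and their part was not tested.

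Among the leukemic arrays, 0 of the 10 genes and 0 of 12393 genes (0%) were called between the 5 arrays with pIpC stated and the other 11 by limma. At an unadjusted p under 0.05 there were 4 of the 10 and 603 of all genes. Those 4 were Lcn2 (7.0 ± 1.10 against 4.89 ± 1.46, adjusted p = 0.908), Camp, Mpo and Elane, all higher with pIpC by 1.56 to 2.86. Csf1r was at 7.57 ± 1.26 and 7.74 ± 3.17.

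Co-variation was measured over the arrays of each group for the 45 pairs of genes, with permutation p-values adjusted over 180 tests. On the 16 leukemic arrays all 15 pairs within the 6 late genes were correlated, with r of 0.65 to 0.95 (median 0.85) and Spearman rho of 0.67 to 0.98. Camp and S100a9 had the highest r (0.95, permutation adjusted p = 0.0003, which is 0.94 without the 2 arrays farthest from the median of Camp). Leaving out the 2 farthest arrays gave r of 0.50 to 0.97 over the 15 pairs, and centring within runs 0.65 to 0.97. None of the 12 pairs of a late with a monocyte gene passed, with r of 0.28 to 0.55 (permutation adjusted p of 0.0596 to 0.372). The other Csf1r probe sets gave r of 0.16 to 0.36 with the late genes and 0.72 to 0.75 with Lyz2.

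Mpo and Elane had r of 0.93, rho 0.93 (permutation adjusted p = 0.0003), and 0.93 without the 2 farthest arrays. Lyz2 and Csf1r had r of 0.79, rho 0.71 (permutation adjusted p = 0.0018), and 0.73 without arrays 15 and 122. Lyz2 was correlated with Mpo (r = 0.70, rho 0.69) and Elane (r = 0.69, rho 0.62), at permutation adjusted p of 0.00992 and 0.0109, and these fell to r of 0.58 and 0.47 without the 2 farthest arrays. Csf1r did not pass with Mpo (r = 0.41) or Elane (r = 0.34). Of the 12 pairs of a late with a primary granule gene 8 passed, with r of 0.50 to 0.74. Without array 122 the late pairs ran from 0.61 to 0.94, the late and monocyte pairs from 0.15 to 0.47, and 24 of the 45 pairs passed. Differences between these correlations were not tested.

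On the 8 pre-B arrays 13 of the 15 late pairs were correlated (r of 0.69 to 0.99, median 0.92). Here Lyz2 went with the late genes, at r of 0.76 to 0.96, and 5 of its 6 pairs passed (exact permutation). Lyz2 passed with Mpo (r = 0.91) and Elane (r = 0.84) too, at exact permutation adjusted p of 0.00893 and 0.026. Csf1r had r of 0.22 to 0.39 with the late genes, and 0 of 6 pairs passed, but its other probe sets gave 0.55 to 0.65 and -0.21 to -0.02, so this depended on the probe set. Lyz2 and Csf1r did not pass (r = 0.54, rho 0.52, exact permutation adjusted p = 0.24), and had r of -0.12 without the 2 farthest arrays. Mpo and Elane had r of 0.96 (rho 0.95, exact permutation adjusted p = 0.00291). These relations rested in part on single arrays: without the 2 arrays farthest from the median, r of Ngp with Lcn2 was 0.26 and that of Ngp with Lyz2 0.37, and without pre-B array 8, the lowest for all 6 late genes but Ngp, 11 pairs of the 45 passed.

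On the 6 pro-B arrays 2 of 15 late pairs passed, with r of -0.17 to 0.97, and the median r of 0.58 turned to -0.25 when values were centred within runs. Camp was 12.60 to 12.79 on the pro-B arrays of run 2 and 11.44 to 11.77 on those of run 1. Mpo and Elane had r of 0.99 (rho 1, exact permutation adjusted p = 0.00893), and 0.98 within runs. Lyz2 and Csf1r had r of 0.08, rho -0.09 (exact permutation adjusted p = 0.9), and 0.88 within runs. On the 6 immature B arrays 8 of 15 late pairs (r of 0.77 to 0.99) and 8 of 12 pairs with Mpo or Elane (r of 0.88 to 0.99) passed by exact permutation. None of the 6 pairs of Lyz2 with a late gene passed there, with r of 0.30 to 0.69 and, within runs, as low as 0.01 for Ngp. Since Csf1r fell into 2 sets of 3 immature B arrays, no r is given for it in that group, and the 3 mature B arrays allow none.

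**Figure D5:**
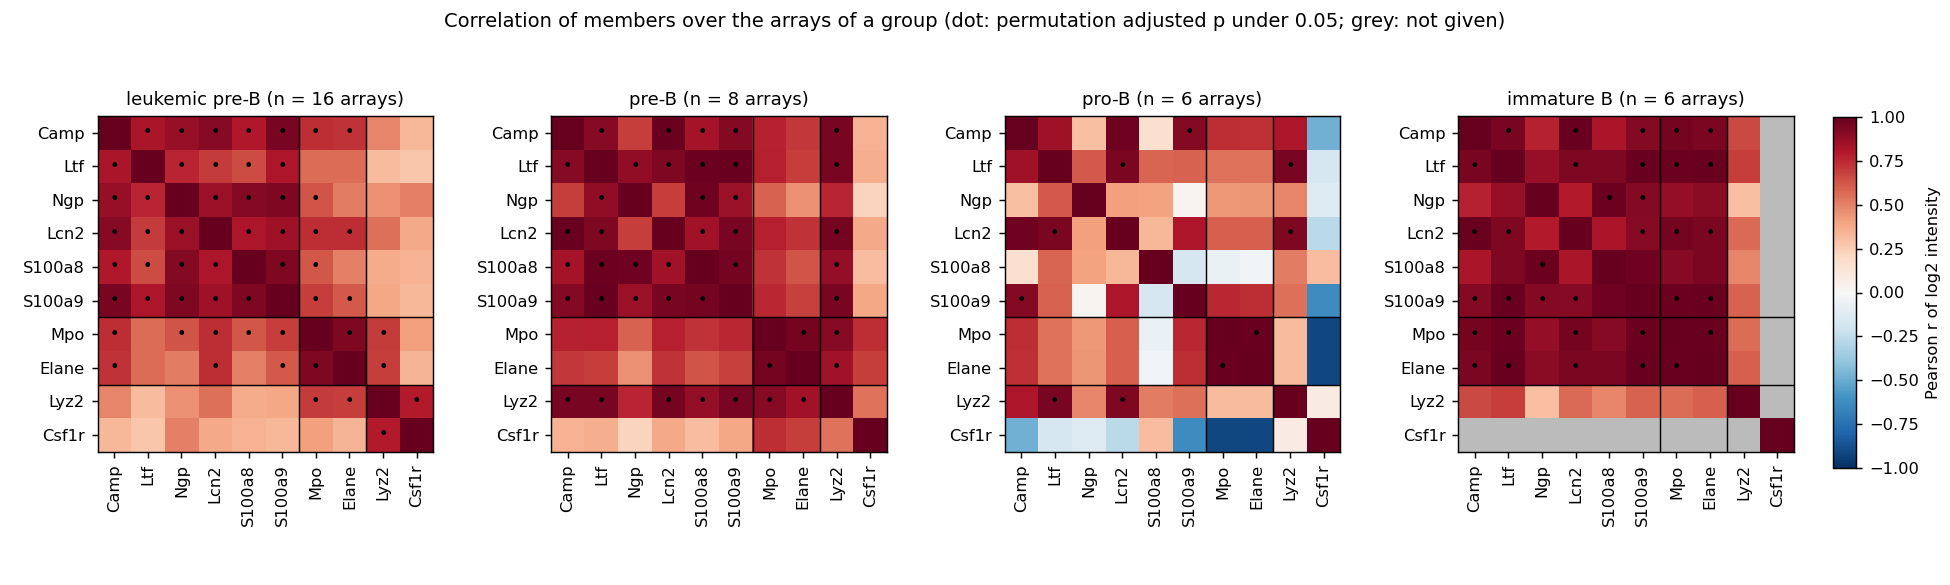
Pearson r of log2 intensity for each pair of the 10 genes over the arrays of 4 groups, with dots where the permutation adjusted p was under 0.05 and lines between the late, primary granule and monocyte genes; grey marks the pairs of Csf1r in immature B cells, for which none is given. Late genes form a block in the leukemic, pre-B and immature B arrays, and Lyz2 and Csf1r are correlated on the leukemic arrays at 0.79.

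Over all 39 arrays, with each group's mean removed, each gene was set beside Camp and Csf1r as a description, since the arrays share their groups and runs. Removing group means leaves the high and low Csf1r sets of the immature and mature B arrays in these r. Leukemic array 122 was kept, and no r without it is given here. The other 5 late genes had r of 0.76 to 0.93 with Camp and 0.29 to 0.40 with Csf1r. Mpo and Elane had 0.71 and 0.74 with Camp and 0.36 and 0.31 with Csf1r. Lyz2 lay between, with 0.56 to Camp and 0.77 to Csf1r, and Camp and Csf1r themselves had 0.33.

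The genes most like Camp outside the 10 were Chil3 (r = 0.867), Pglyrp1 (0.800), Cd177, a neutrophil surface protein (0.737), Ms4a3 (0.672), the tropomyosin Tpm4 (0.645), haptoglobin Hp (0.628), and the serine proteases Prtn3 (0.605) and Ctsg (0.601). Those most like Csf1r were Ms4a6c (0.931), the calcium-binding S100a4 (0.929), Fcer1g, the shared signalling chain of Fc receptors (0.919), Aif1 (0.898), Tgfbi (0.891), Ifitm3 (0.889), Cd300a (0.887) and the chemokine Ccl6 (0.882). Both sets were chosen by this r, so their likeness is a description. Aif1, for example, divided as Csf1r did, at 9.07, 9.19 and 8.51 on immature B arrays 2, 3 and 6 and 4.09, 3.94 and 4.22 on arrays 1, 4 and 5.

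Of lists outside the 10 genes, all 24 other monocyte genes, 15 of 16 macrophage genes and 11 of 12 oxidase and Fc receptor genes had a higher r with Csf1r than with Camp. So did lists of other kinds, with 9 of 9 plasmacytoid dendritic, 13 of 14 NK and T cell and 13 of 14 myeloid transcription factor genes. Plasma cell (6 of 6) and erythroid genes (6 of 9) did too, so the direction was not particular to monocyte genes. The median r with Csf1r was 0.77 for other monocyte and 0.69 for oxidase and Fc receptor genes. It was 0.45 for macrophage and plasmacytoid dendritic and 0.46 for myeloid transcription factor genes. For NK and T cell genes it was 0.34, and for plasma cell and erythroid genes 0.22. A higher r with Camp was seen for 9 of 13 eosinophil, basophil and mast cell genes and 8 of 12 B-lineage genes. The other late neutrophil genes divided, 9 closer to Camp and 11 closer to Csf1r, and so did the other primary granule genes, 4 and 5. Over all 12393 genes, 6963 were closer to Camp and 5430 to Csf1r.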

How the data were processed

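Sorted fractions gave RNA (Trizol, per the labels' protocols), of which 20 ng was amplified with the NuGEN Ovation system to biotinylated cDNA. The deposited values were 1 RMA intensity per probe set and array, made by the authors per the submitters' processing notes, on a linear scale. Whether all arrays were normalized together is not given in the sources used here. Values were taken to log2 with no offset. Of 22690 probe sets, 64 array controls, 691 with several symbols and 1555 with none were left out. For a gene with several, the probe set brightest on average over the 39 arrays stood for it.

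Comparisons used limma 3.58.1 in R 4.3.3 (lmFit, eBayes with a trend), with Benjamini-Hochberg adjustment over 12393 genes and a threshold of 0.05. The normal steps came from 1 fit of 23 arrays, the others from the arrays compared. Correlations used exact permutation under 10 arrays and 100000 resamples otherwise (scipy 1.17.1). Scripts were tested on simulated data. Arrays have no read depth; their number limits precision.

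The members and the gene lists were chosen with earlier results of these data known. Named genes are the 10 members, the 8 genes most like Camp and like Csf1r (predicted genes left out), and up to 3 called genes of a list with the largest difference in leukemic against pre-B and in pre-B against pro-B cells. B-lineage genes that check the labels are named besides. Accession run, normalization, scaling, dim genes, probe set choice, the intensity trend, the arrays in the fit, the replicate number and left-out arrays were varied. The other Csf1r probe sets and the arrays 116 and 122 were singled out after seeing the data.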

Additional observations from a re-analysis of the deposited data

How the results depend on the processing

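Over settings other than a left-out array, 539 of the member differences kept their direction and side of the threshold, 47 lost a call, 10 gained one and 14 changed sign; with 1 array left out these were 927, 24, 23 and 16. With array medians subtracted, the genes called between pre-B and pro-B cells went from 4162 (53.2% higher) to 6447 (76.3% higher), as the median of all genes moved from 0.11 to 0.30, and between leukemic and pro-B cells from 1950 (51.5% higher) to 5309 (84.1% higher), as it moved from 0.13 to 0.33; the split went from 55.6% to 44.5% higher for immature B minus pre-B and from 37.3% to 50.7% for mature minus immature B. With the dimmest 40% of genes left out the first 2 counts were 2509 and 813, from fewer genes tested. With all 39 arrays in 1 fit, pre-B minus pro-B gave 2627 genes and 1 member, immature B minus pre-B 1414 genes and 0 members, and mature minus immature B 203 genes, against 651. Run as a covariate gave 9 members for immature B minus pre-B and 1026 genes for mature minus immature B. Within run 1, from fewer arrays, pre-B minus pro-B gave 2191 genes and 0 members, immature B minus pre-B 1314 (2426 in the main analysis) and 0, leukemic minus pre-B 1001 (1987), leukemic minus pro-B 344 and 5 members, and the pIpC comparison 1 gene; within run 2, pre-B minus pro-B gave 2055 and leukemic minus pro-B 786. Without the _x_at, _s_at and _a_at probe sets the pIpC comparison called 1 gene.

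In mature minus immature B cells, where no member was called, signs turned with the run as a covariate for Lcn2 (-0.20), S100a9 (-0.04) and Lyz2 (-0.30), and within run 2 for Camp (-0.14), Ltf (-0.13), Lcn2 (-0.33), S100a9 (-0.10) and Lyz2 (-0.60). S100a8 minus Lyz2 turned to 0.36 there when taken within runs, and in pre-B minus pro-B it was 0.67 and passed (exact permutation, adjusted p = 0.0294). For Csf1r in leukemic minus pro-B, the mean of all probe sets gave 0.33 and the other probe sets 0.41 and 0.89. In the pIpC comparison Csf1r was 0.91 within run 1 and Lyz2 -1.98 within run 2. Correlated pairs numbered 2 for pre-B without the 2 arrays farthest from the median, and 3 for pro-B after quantile normalization. The cause was not tested.

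Same-numbered arrays of neighbouring stages deviated together in some cases only (r from -0.74 to 0.66). The lowest r, -0.74 and -0.58, were of arrays numbered 4, which lie in different runs. Centring within runs gave -0.68 and -0.22 for these. Centred within runs, r was 0.27 to 0.39 for the arrays numbered 5 and 6, of run 1. For same-numbered arrays that both lie in run 2 it was -0.27 to 0.56. No r of differently numbered arrays was set beside these, so they do not settle whether the numbers pair the arrays. The main comparisons do not pair them. With the replicate block, pre-B minus pro-B called 6 members, without Mpo (adjusted p = 0.0544), Lyz2 (0.0975) and Csf1r (0.0908), immature B minus pre-B called 3 members, without S100a9 (0.0515) and Lyz2 (0.0635), and Lyz2 turned to -0.10 in mature minus immature B. Leukemic arrays share no number with the others, so no block was run there.

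Leaving out 1 array gave 8 to 10 members for pre-B minus pro-B, 3 to 9 for immature B minus pre-B, 6 to 7 for leukemic minus pre-B, 7 to 9 for leukemic minus pro-B and 0 for the others. All genes called ran from 241 to 801 for mature minus immature B (over 1.5 times below 651 without mature B 1 or 3), from 860 to 2777 for leukemic minus pro-B (over 1.5 times below 1950 without pro-B 1, 2, 3 or 6), and from 0 to 2 for pIpC (2 without A46). Without array 116, whose description states neither leukemia nor sort markers, 6 members were called for leukemic minus pre-B, 8 for leukemic minus pro-B, and 27 pairs were correlated. Correlated pairs ran from 11, without pre-B 8, to 25 in pre-B cells. Camp minus Csf1r for immature B minus pre-B ran from -3.08 (without immature B 1, when it passed) to -1.90. S100a8 minus Lyz2 ran from 0.55 to 0.80 for pre-B minus pro-B (0.80 without pre-B 4, when it passed), from -0.53 to 0.36 for mature minus immature B, and from -0.01 to 1.04 for pIpC. Member signs turned in mature minus immature B, where ranges were -0.06 to 0.91 for Ltf, -0.35 to 0.14 for Ngp, -0.25 to 0.14 for S100a8, -0.05 to 0.25 for S100a9, -0.61 to 0.68 for Lyz2 and -2.61 to 0.33 for Csf1r, and for Csf1r in the pIpC comparison, -0.58 to 0.33. Left-out arrays were not tried for correlations in pro-B and immature B cells, where under 6 would remain.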
